A study of Mus musculus with 108 samples.

Results

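Radial glia and neurogenic progenitor genes of the mouse brain were followed here, namely Pax6, Sox2, Hes1, Hes5, Neurog2, Eomes, Fabp7, Hopx and Tnc, found by matching gene identifiers to symbols: 9 members of 53465 genes in the deposited table. The study sequenced total RNA of WT and Cul3+/- (HET) mice at the embryonic stage E17.5, postnatal day 7 (P7) and the adult period (P35), in 108 libraries of 36 mice. Each mouse gave the cortex (CX), the hippocampus (HIP) and the cerebellum (CB). Cul3 codes for a scaffold of a ubiquitin ligase, and the comparisons ask how a lost copy affects gene expression in the developing brain. HET mice carried a germline 1-base insertion in Cul3 exon 6 on a strain spelled C56Bl/6N in the labels and C57BL/6N in the study's methods, in a line expanded from a single founder, and no group was treated. The labels give no sex for a sample. At E17.5 and at P7 there were 6 WT and 6 HET mice. The genotype of 2 adult mice differed between the labels and the study's own sample table, so their 6 libraries were left out, which left 5 WT and 5 HET mice at P35 and 102 libraries in all.

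Radial glia are the stem cells that line the ventricles of the embryonic brain. They divide, serve as a scaffold for migrating neurons and later give rise to glia. In the forebrain they carry the transcription factors Pax6 and Sox2 and the fatty acid binding protein Fabp7, and they are held in the progenitor state by Notch signalling, whose target genes Hes1 and Hes5 code for repressors of proneural genes such as Neurog2. Neurog2 drives cells towards a glutamatergic fate by way of intermediate progenitors, which carry Eomes (Tbr2). Hopx and the extracellular matrix protein tenascin-C (Tnc) are known as markers of outer radial glia, and many of these genes stay on in astrocytes, Bergmann glia or adult stem cells. In the cerebellum Pax6 also marks the granule cell lineage and Eomes the unipolar brush cells.

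All values below are CPM, a gene's read count scaled to the total of its library after normalization by the trimmed mean of M values (TMM), given as mean ± SD over libraries. A log2 fold change is given ± its SE from edgeR's quasi-likelihood test, with p-values adjusted over all genes tested by the Benjamini-Hochberg method, and a gene is called at an adjusted p below 0.1. Library totals ran from 15126114 to 44411282 counts. Cul3 was lower in HET than in WT libraries in each of the 9 period-by-region datasets, by 0.74 to 0.99 on the log2 scale, with no overlap between the genotypes. The summed CPM of 4 cerebellar marker genes was at least 288 in every WT CB library and at most 49.1 in the other regions. Libraries of bulk tissue cannot tell fewer cells of a type from less RNA per cell. Several libraries stood apart before any test. At E17.5 the mice whose names begin with S3 differed from the other embryos in most members, the CX library of P7 WT replicate 1 held far more Eomes than its group, and the HIP library of E17.5 WT replicate 2 held choroid plexus genes at a summed 4751 CPM against 7.13 to 132 in the other 5 WT libraries and 24.0 to 335 in the 6 HET libraries.

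Upstream sequences are shown for 3 members, because Hes5 is a direct Notch target and because Neurog2 and Eomes had the steepest falls in the cortex. Each is the 250 bases before the gene's start in RefSeq (GRCm38.p6), 5′ to 3′ on the gene's strand. Capitals mark the motif of RBPJ, the DNA-binding partner of Notch (GTGGGAA, or TTCCCAC on the other strand), or the N box bound by Hes repressors (CACNAG, or CTNGTG on the other strand). The Hes5 window lies at chr4:154960673-154960922 on the plus strand, the Eomes window at chr9:118477939-118478188 on the plus strand, and the Neurog2 window at chr3:127632886-127633135 on the plus strand.
Hes5: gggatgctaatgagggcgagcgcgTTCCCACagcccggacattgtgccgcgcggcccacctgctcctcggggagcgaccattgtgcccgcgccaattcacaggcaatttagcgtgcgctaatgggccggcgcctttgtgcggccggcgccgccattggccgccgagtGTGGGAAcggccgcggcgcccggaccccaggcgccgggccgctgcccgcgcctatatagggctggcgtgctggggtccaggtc
Eomes: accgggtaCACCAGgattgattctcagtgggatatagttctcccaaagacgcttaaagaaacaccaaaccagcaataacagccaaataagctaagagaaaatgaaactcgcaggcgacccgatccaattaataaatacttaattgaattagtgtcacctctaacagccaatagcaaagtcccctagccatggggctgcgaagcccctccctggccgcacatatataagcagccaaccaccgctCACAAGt
Neurog2: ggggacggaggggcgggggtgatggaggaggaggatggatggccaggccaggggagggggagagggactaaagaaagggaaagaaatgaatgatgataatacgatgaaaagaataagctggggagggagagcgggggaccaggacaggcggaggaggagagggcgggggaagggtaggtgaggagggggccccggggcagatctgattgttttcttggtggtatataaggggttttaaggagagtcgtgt
Of the 9 members 8 matched the promoter table, with 11 windows, and Hes1 did not. Hes5 held 2 RBPJ matches, 226 and 83 bases before its start, and the window of 1 of the 2 starts of Tnc held 1, 82 bases before that start. That is 2 of 11 windows, where 5.41% of 32841 mouse windows of this length held the motif. The N box occurred in 4 of 11 windows (Pax6, Eomes, Fabp7 and Hopx) against 36.7% of all windows, and in Eomes the matches lay 242 and 7 bases before the start. The Neurog2 window held neither string of letters. A match of letters is a description and not a measured binding site.

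**Figure D1:**
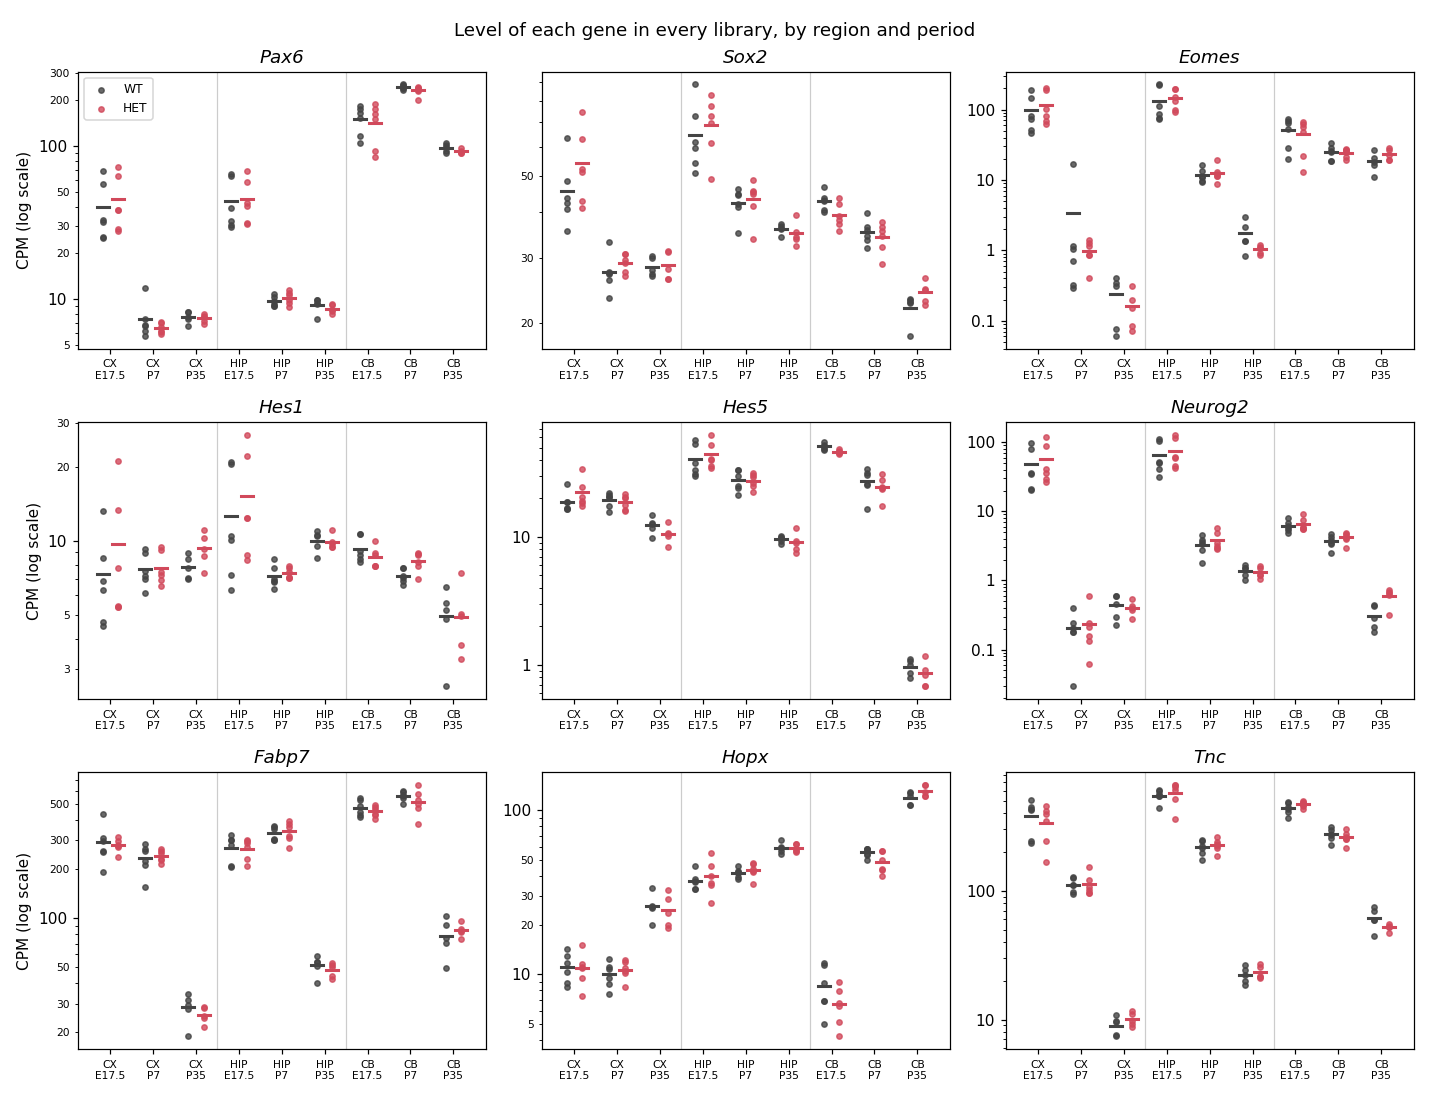
TMM-scaled CPM on a log axis for each of the 9 genes, with 1 point per library (WT grey, HET red), a bar at the group mean, and the 9 region-by-period groups along the x axis. Neurog2 and Eomes span the widest ranges and Hes1 and Sox2 the narrowest.

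The proneural factor Neurog2 and the intermediate progenitor factor Eomes had their highest group means in the E17.5 forebrain. Neurog2 (chr3:127633135-127635631, plus strand) averaged 48.2 ± 32.3 CPM in E17.5 CX (n = 6) and 65.2 ± 34.0 in E17.5 HIP (n = 6). The 6 WT CX libraries ran from 20.6 through a median of 35.2 to 96.8 CPM. By P7 the CX level was 0.207 ± 0.122 CPM, with 1 to 14 reads in a library, so all 6 libraries lay far below the embryonic ones. The fall in CX was -7.88 ± 0.51 on the log2 scale (adjusted p = 1.3e-10). In HIP the fall was smaller, -4.31 ± 0.32, and left 3.30 ± 0.957 CPM at P7 and 1.37 ± 0.265 at P35. The drop from P7 to P35 in HIP was also called (-1.24 ± 0.36). CB held little at E17.5, 6.13 ± 1.16 CPM, still had 3.68 ± 0.781 at P7, and fell to 0.308 ± 0.121 at P35 (-3.51 ± 0.24). The highest of the 9 group means of Neurog2 was 314 times the lowest.

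Eomes (chr9:118478212-118486132, plus strand) followed the same order in the forebrain. Its 6 WT libraries of E17.5 CX held 73.6, 80.6, 145, 188, 46.4 and 50.9 CPM, replicates 1 to 6. At P7 they held 17.03, 1.05, 0.702, 0.319, 1.13 and 0.294 CPM. Replicate 1 alone stood above the others there, and no library reached the embryonic range. The fall from E17.5 to P7 was -4.88 ± 0.80 with that library and -7.15 without it, and the later fall from P7 to P35 was -3.74 ± 1.18 with it and -1.47 without it. That library also held more Pax6, 11.7 against 5.71 to 7.41 CPM, and its granule cell lineage genes summed to 36.6 against 16.8 to 24.0 CPM in the other 5 WT libraries. These genes reached 30.1 CPM in a P7 CX HET library with a name beginning with C2. In WT replicate 1 the 4 cerebellar marker genes summed to 41.0 CPM, within the 35.2 to 49.1 CPM of the P7 CX libraries of both genotypes. A list of 8 neurogenic progenitor genes outside the members summed to 70.2 CPM, the lowest of the P7 CX WT libraries. The part of any of these genes in its Eomes value was not tested. HIP retained Eomes for longer: 134 ± 72.9 CPM at E17.5, 11.8 ± 2.67 at P7 and 1.74 ± 0.846 at P35, with both steps called (-3.52 ± 0.33 and -2.73 ± 0.39). In E17.5 CB the difference of Eomes from CX was not called (-0.62 ± 0.44, adjusted p = 0.248), while without the mouse as a block it was -0.91 (0.0697) and in HET libraries -1.19 (0.0375), both called by edgeR. The sign of the WT difference varied with the prefix of the mouse names, with 2 WT mice each. Means in CB and CX were 60.8 and 77.1 CPM for S2, 24.3 and 167 for S3, and 68.0 and 48.7 for S4. In CB the gene declined from 51.0 ± 21.9 to 25.0 ± 5.77 CPM by P7 (-1.04 ± 0.27), and the step to 18.5 ± 5.83 CPM at P35 was not called (-0.42 ± 0.29, adjusted p = 0.20). Adult CB was therefore the adult region richest in Eomes, 6.18 ± 0.34 above CX on the log2 scale and 3.44 ± 0.27 above HIP.

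The radial glial transcription factors parted from each other. Pax6 (chr2:105668900-105697364, plus strand) was highest in CB at every period, at 149 ± 32.1, 243 ± 7.21 and 97.1 ± 5.97 CPM at E17.5, P7 and P35. The rise to P7 (0.69 ± 0.11) and the fall to P35 (-1.31 ± 0.11) were both called. The 6 P7 CB libraries kept within 233 and 252 CPM, with a median of 243, and lay above every library of every other WT group. In CX Pax6 fell from 39.9 ± 17.97 to 7.40 ± 2.19 CPM (-2.48 ± 0.24) and then measured 7.63 ± 0.636 at P35. HIP did much the same, with 43.4 ± 16.7, 9.68 ± 0.709 and 9.16 ± 1.01 CPM. The 4 postnatal forebrain groups of Pax6 overlapped with their neighbours in the order of levels.

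Sox2 (chr3:34650405-34652461, plus strand), which maintains stem cells and persists in astrocytes, moved far less. Its highest group mean was 2.93 times its lowest. In CX it fell from 45.7 ± 9.59 to 27.5 ± 3.18 CPM by P7 (-0.78 ± 0.11) and stood at 28.5 ± 1.63 at P35. HIP had the highest level at each period, 64.7 ± 13.9, 42.3 ± 3.98 and 36.0 ± 1.12 CPM. CB fell in both steps, from 42.9 ± 2.41 to 35.4 ± 2.71 and to 22.1 ± 2.01 CPM (-0.29 ± 0.06 and -0.67 ± 0.07). Sox2 lies within the longer noncoding gene Sox2ot on the same strand.

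The Notch effectors Hes1 and Hes5 also differed. Hes1 (chr16:30064384-30067796, plus strand) had group means between 4.93 and 12.6 CPM, and neighbouring groups overlapped throughout the order of its levels. It did not pass the test in CX at either step (0.01 ± 0.21 and 0.07 ± 0.21, adjusted p = 0.96 and 0.81). In HIP it fell between E17.5 and P7 (-0.82 ± 0.25). The 6 WT HIP libraries of E17.5 held 10.5, 10.0, 20.9, 20.4, 7.25 and 6.28 CPM, replicates 1 to 6. Those of P7 held 6.34 to 8.40 CPM, and embryos 3 and 4 have names beginning with S3. In CB Hes1 fell at both steps (-0.38 ± 0.14 and -0.53 ± 0.16). In HET libraries the first of these CB steps was -0.057 and was not called (adjusted p = 0.732). Hes5 (chr4:154960923-154962371, plus strand) had a clear end point in the cerebellum. Its WT CB libraries held 47.9 to 55.6 CPM with a median of 51.1 at E17.5, and 16.5 to 33.8 with a median of 28.2 at P7. At P35 the 5 libraries held 1.103, 0.989, 0.782, 1.06 and 0.869 CPM, and no P35 library came near the earlier ones. The second step was -4.81 ± 0.17 on the log2 scale (adjusted p = 7.6e-15). Hes5 in P35 CX and HIP was still 12.3 ± 1.82 and 9.64 ± 0.566 CPM, and adult CB differed from CX by -3.68 ± 0.12. In CX the level was 18.9 ± 3.55 CPM at E17.5 and 19.5 ± 2.46 at P7 (0.00 ± 0.12), and it fell to P35 (-0.63 ± 0.13). In HET libraries the first of these CX steps was -0.31 and was called (adjusted p = 0.0614).

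Fabp7 and Tnc fell steeply between P7 and P35 in each region. Fabp7 (chr10:57784881-57788450, plus strand) averaged 292 ± 80.5 CPM in E17.5 CX and 233 ± 46.5 at P7, a small change (-0.37 ± 0.18, adjusted p = 0.064). It was no longer called without E17.5 WT replicate 1 or 2 or without P7 WT replicate 3, 4 or 6 (adjusted p from 0.101 to 0.200), nor with no filter on low counts (0.108). It then dropped to 28.4 ± 5.83 CPM at P35 (-3.00 ± 0.21). HIP rose slightly to P7, from 270 ± 50.3 to 331 ± 32.4 CPM (0.28 ± 0.12), before falling to 51.6 ± 7.16 (-2.66 ± 0.13). CB held 476 ± 53.5, 562 ± 37.3 and 77.9 ± 20.3 CPM, and the second step was -2.83 ± 0.14. Per kilobase of exon Fabp7 reached 449 CPM, the highest level of any member by length. Tnc (chr4:63959785-64047015, minus strand) fell at both steps in all 3 regions. CX libraries went from 383 ± 115 to 111 ± 13.6 and 8.98 ± 1.49 CPM (-1.83 ± 0.17 and -3.59 ± 0.20). HIP went from 550 ± 58.5 to 217 ± 28.4 and 22.3 ± 3.15 CPM, and CB from 439 ± 46.6 to 275 ± 30.7 and 61.2 ± 11.4 CPM.

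Hopx (chr5:77086988-77115121, minus strand), a homeodomain-only protein, ran against most other members. In CB it climbed from 8.46 ± 2.72 CPM at E17.5 to 55.4 ± 3.47 at P7 (2.70 ± 0.15) and 119 ± 10.7 at P35 (1.12 ± 0.15). The 5 adult CB libraries held 123, 130, 108, 127 and 108 CPM, all above every library of the other WT groups. CX stayed near 11.1 ± 2.32 and 10.0 ± 1.79 CPM through P7 and rose to 26.3 ± 4.83 at P35 (1.42 ± 0.16). HIP was high from the start, 37.3 ± 4.78 CPM at E17.5 and 41.6 ± 2.76 at P7, and rose to 59.3 ± 4.49 at P35 (0.54 ± 0.08). By edgeR's test Hopx was the only member called higher between P7 and P35, in each of the 3 regions. DESeq2 also called Hes1 higher in HIP (0.53, adjusted p = 0.0854) and Neurog2 in CX (1.141, adjusted p = 0.0718) in that step. For these edgeR gave 0.51 and 1.098 without a call. The Neurog2 means in CX were near the floor, 0.207 CPM at P7 and 0.436 at P35, from 1 to 14 and 6 to 20 reads in a library. Hes1 in HIP was also called by edgeR without E17.5 WT replicate 3, 4, 5 or 6 (adjusted p from 0.0592 to 0.0792). Several members overlap another annotated gene on the opposite strand (Pax6, Eomes, Hes5, Hopx and Tnc), and the strand setting of the counting is not given in the sources used here.

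**Figure D2:**
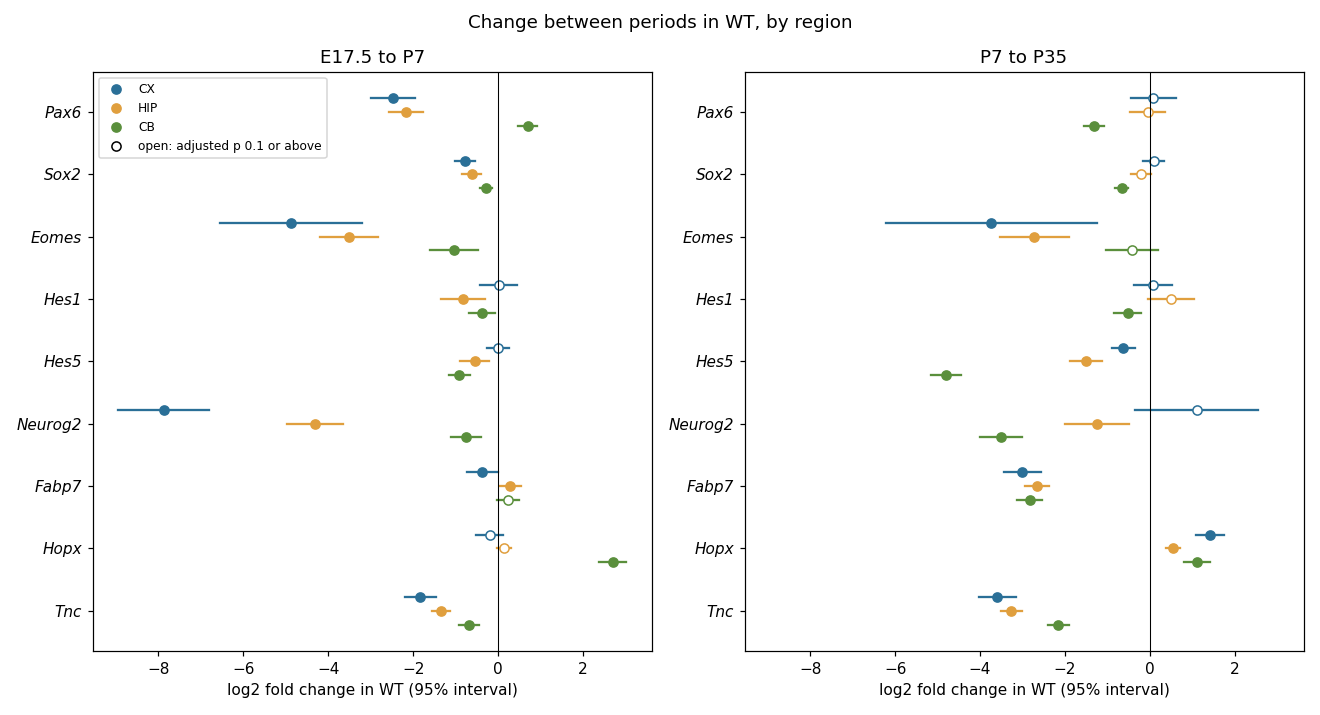
Log2 fold change in WT libraries for each gene from E17.5 to P7 and from P7 to P35, with 95% confidence intervals; colours mark CX, HIP and CB, and filled points are called at an adjusted p below 0.1. Hopx lies to the right of 0 in the later step in each region, Tnc and Fabp7 lie 2.15 to 3.59 to the left in that step, and Neurog2 and Eomes fall furthest in the forebrain in the earlier step.

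Counted over the 9 members, development changed most of them, as it did most genes. In CX 0 members were called higher and 6 lower from E17.5 to P7, where 41.3% of genes tested were called higher and 40.6% lower, and 1 was higher and 4 lower from P7 to P35 (33.2% and 34.5% of genes). In HIP 1 member was higher and 7 lower in the first step (38.9% and 39.1%), and 1 higher and 5 lower in the second (31.3% and 31.5%). In CB 2 were higher and 6 lower (35.7% and 35.5%), then 1 higher and 7 lower (40.0% and 39.4%). The median log2 fold change of the members was -0.78, -0.82 and -0.38 in CX, HIP and CB in the first step, against medians of 0.01, -0.0046 and -0.0051 over all genes tested. Each period is a separate set of mice, so development and any difference in how those mice were handled cannot be told apart.

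The course over time differed between regions, by a test of the difference of log2 fold changes with the mouse as a block. From E17.5 to P7 the CB and CX changes differed for 9 of 9 members, where 69.6% of genes did. The largest difference was that of Neurog2, 6.91 ± 0.32, followed by Eomes (4.43 ± 0.69), Pax6 (3.04 ± 0.27) and Hopx (2.94 ± 0.20). From P7 to P35 7 members differed between CB and CX (61.0% of genes), led by Neurog2 (-4.63 ± 0.50) and Hes5 (-4.16 ± 0.20). The CX side of the Neurog2 differences, here and against HIP, rests on few reads. WT CX libraries held 1 to 14 reads at P7 and 6 to 20 at P35. The Eomes difference in that step, 2.41 ± 1.05, rested on the P7 mouse whose CX library stood apart: without the mouse it was 1.07 with an adjusted p of 0.309. HIP and CX differed for 6 members in the earlier step (38.6% of genes) and for 3 in the later step (17.6%), namely Hes5, Neurog2 and Hopx. In the earlier HIP comparison Neurog2 fell less than in CX by 3.46 ± 0.34 and Eomes by 2.22 ± 0.68. Without the same P7 mouse the Eomes differences in the earlier step were 3.58 for HIP and 5.77 for CB, and both were still called.

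Regions were also compared within each period, with the mouse as a block. At E17.5 HIP was above CX for 6 members and below for 0, against 24.2% and 22.3% of genes. Hopx (1.77 ± 0.19) and Hes5 (1.11 ± 0.14) led, and Eomes (0.51 ± 0.42) and Pax6 (0.17 ± 0.26) were not called. CB was above CX for 5 members and below for 2 (31.3% and 30.3% of genes), with Pax6 at 2.08 ± 0.27, Hes5 at 1.48 ± 0.14 and Neurog2 at -2.70 ± 0.21. CB was above HIP for 3 and below for 5 (25.0% and 24.5%). The weaker of these calls at E17.5 depended on which mice were included. Between CB and CX, Hes1 lost its call without WT replicate 1, 2, 5 or 6. Hopx lost it there without 1, 2, 3 or 4, and Tnc without 2, 3 or 4. Between CB and HIP, Eomes lost it without 1 or 3, Hes5 without 1, 2, 5 or 6, and Tnc without 5. Neurog2 between HIP and CX lost it without 2 or 5. Without the mouse as a block, Hes1 and Tnc between CB and CX were not called. Nor were Hes5 and Tnc between CB and HIP, or Neurog2 between HIP and CX. DESeq2, upper-quartile scaling and no filter on low counts each left Hopx between CB and CX uncalled. In HET libraries Hes1 between CB and CX was not called, nor were Hes5 and Tnc between CB and HIP.

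At P7 HIP was above CX for 8 members and below for 0 (27.8% and 29.2% of genes), with Neurog2 at 3.97 ± 0.20 and Hopx at 2.05 ± 0.07. CB at P7 was above CX for 8 and below for 0 (44.1% and 38.8%), with Pax6 at 5.11 ± 0.13, Neurog2 at 4.22 ± 0.20 and Hopx at 2.53 ± 0.07. Hes1 was the member not called in either of these comparisons (-0.10 ± 0.07 and -0.02 ± 0.07). CB at P7 was above HIP for 5 and below for 1, Sox2 (42.3% and 36.0%). Eomes, 1 of those above, was not called by DESeq2 (1.04, adjusted p = 0.122). At P35 HIP was above CX for 7 and below for 1, Hes5 (25.5% and 25.9%). CB was above CX for 5 and below for 3 (38.9% and 36.5%), and above HIP for 5 and below for 4 (38.3% and 36.8%). The Eomes values against CX at P7 also depended on WT replicate 1: HIP was 2.58 ± 0.57 and CB 3.70 ± 0.56 above CX with it, and 4.03 and 5.12 above without it.

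Other genes of the same pathways, taken from lists, moved as follows. Of all genes tested in CX from E17.5 to P7, 41.3% were called higher and 40.6% lower. From E17.5 to P7 in CX, 4 of 17 other Notch pathway genes were called higher and 8 lower, with the ligand Dll1 at -1.75 ± 0.11, the DNA-binding partner Rbpj at -1.82 ± 0.14 and Hes6 at -1.29 ± 0.11. Of 15 other radial glia genes 3 were higher and 11 lower, with the intermediate filament Nes at -3.00 ± 0.16, Fam107a at 4.30 ± 0.23 and the glutamate transporter Slc1a3 at 1.23 ± 0.08. All 7 other neurogenic progenitor genes tested were lower, with Insm1 at -4.12 ± 0.26, Neurod4 at -4.69 ± 0.42 and Btg2 at -1.77 ± 0.28. All 10 proliferation genes were lower, with Top2a at -2.86 ± 0.23, Mki67 at -2.74 ± 0.24 and Ccnb1 at -2.86 ± 0.25.

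In CB over the same step all 10 proliferation genes were called higher (Ccna2 0.79 ± 0.10, Pcna 0.50 ± 0.09, Birc5 0.64 ± 0.12), and 6 of 8 neurogenic progenitor genes were higher and 0 lower, led by Insm1 (1.52 ± 0.10), Neurod1 (2.00 ± 0.13) and Gadd45g (0.67 ± 0.08). Neurog2 and Eomes fell in the same libraries. Of all genes tested in CB, 35.7% were called higher and 35.5% lower in this step, and 40.0% and 39.4% from P7 to P35. From P7 to P35 in CB 15 of 17 Notch pathway genes were lower and 2 higher, with the Notch feedback gene Nrarp at -2.42 ± 0.10, the ligand Dll3 at -4.15 ± 0.17 and the Notch antagonist Numb at 1.07 ± 0.05. All 8 neurogenic progenitor genes and all 10 proliferation genes were lower, with Insm1 at -8.50 ± 0.17 and Mki67 at -8.10 ± 0.18. The gene lists, like the members, were drawn up with earlier results of these data known.

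The embryos did not form 1 homogeneous group. In both genotypes replicates 1 and 2 have mouse names beginning with S2, 3 and 4 with S3, and 5 and 6 with S4, so that 2 WT and 2 HET mice share each prefix, and the labels do not say what the prefix stands for. In E17.5 CX the 4 S3 libraries held 145 to 202 CPM of Eomes, against 73.6 to 101 in S2 and 46.4 to 69.1 in S4, with no overlap. Neurog2 averaged 96.4 CPM in S3 against 36.8 and 24.5, and Pax6 65.2 against 35.3 and 26.7. Tnc ran the other way, 223 CPM in S3 against 423 and 435. An F test of the prefix across all genes, chosen after the data were seen, called 8 of 9 members in CX (all but Hopx), where 42.7% of genes were called, with adjusted p of 4.1e-07 for Pax6 and Neurog2 and 4.3e-07 for Eomes. It called 7 in HIP (30.9% of genes) and 5 in CB (28.2%).

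In CB the order was reversed for Eomes and Pax6. Eomes averaged 20.8 CPM in the S3 libraries against 58.1 and 64.8, and Pax6 99.2 against 163 and 174, while Neurog2 stayed higher in S3 (7.88 against 5.54 and 5.65 CPM). Other lists moved with the prefix. In E17.5 CX the 10 proliferation genes summed to 995 to 1237 CPM in S3 against 605 to 683 in S2 and 443 to 536 in S4, the 8 other neurogenic progenitor genes to 285 to 382 against 167 to 212 and 133 to 160, and the 4 oligodendrocyte precursor genes to 21.2 to 29.0 against 62.4 to 73.6 and 79.4 to 116. The 5 neuronal genes summed to 3359 to 3733 in S3 against 4227 to 4428 and 4163 to 4625. In CB proliferation genes were lower in S3, 772 to 975 against 1050 to 1166 and 1061 to 1239. What part the stage of the embryos or the dissection had in this was not tested. At P7, where names begin with C1, C2 or C4, the same test called 1 of 8 members in CX, Tnc (adjusted p = 0.039, with 2.17% of genes called), 0 of 9 in HIP (0% of genes) and 0 of 9 in CB (0.0742%); at an unadjusted p below 0.05 there were 4, 3 and 0 members, and 2752 of 17675, 1245 of 17754 and 2307 of 17532 genes.

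**Figure D3:**
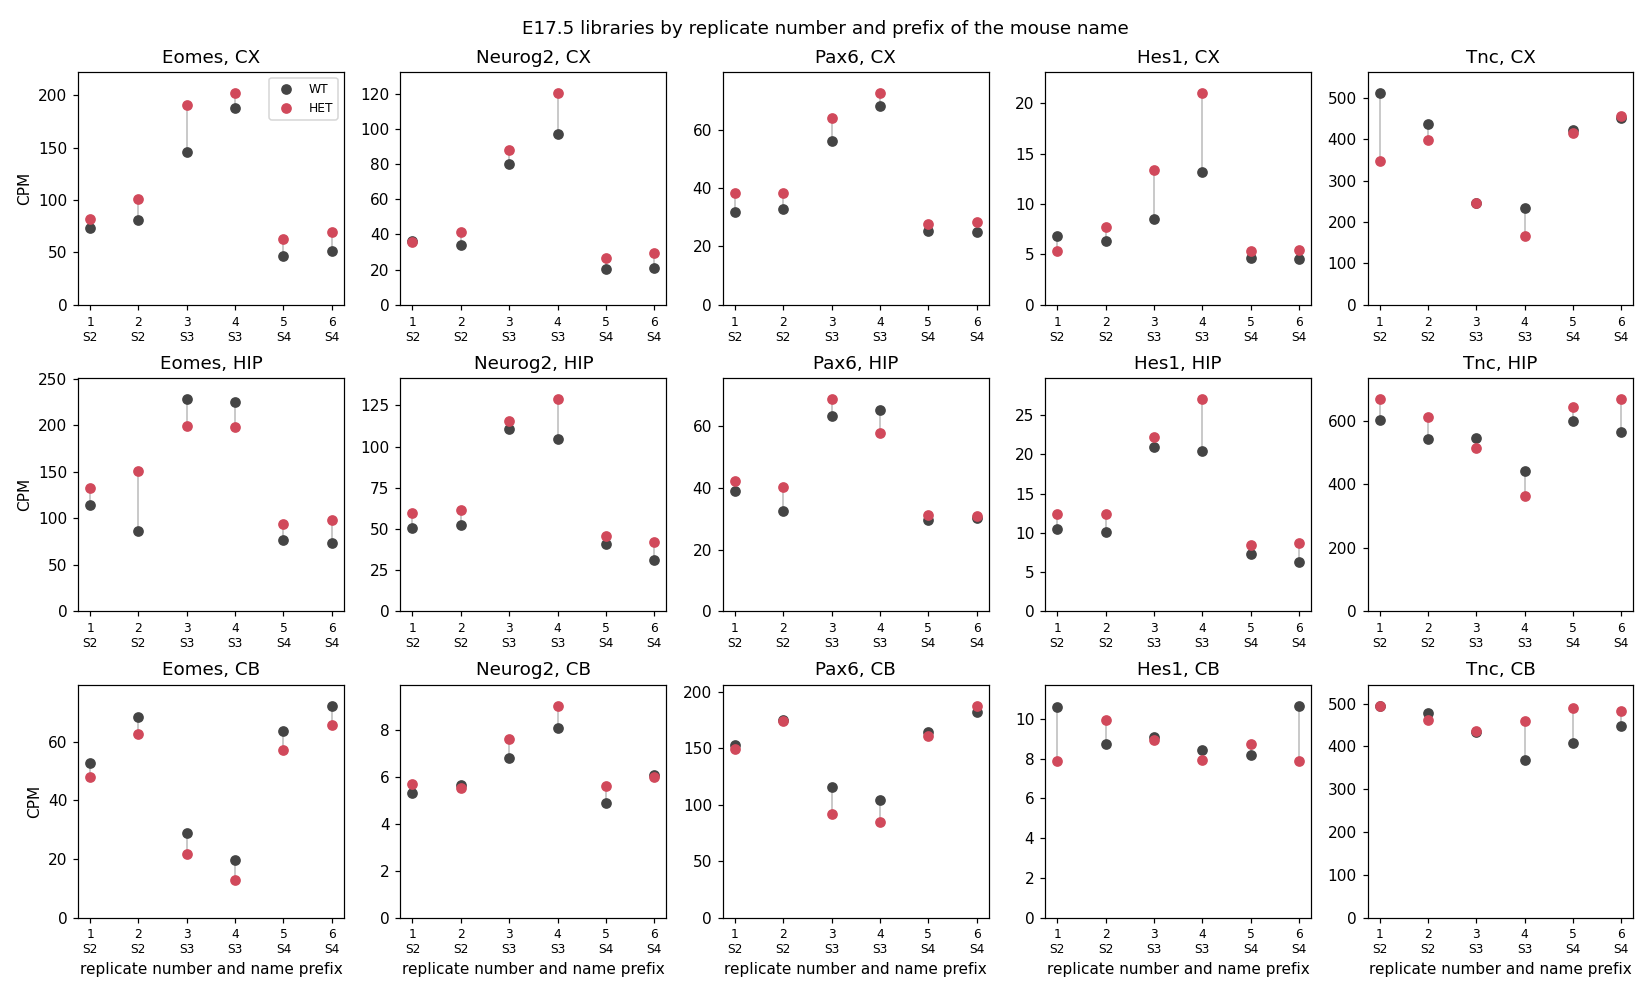
CPM on a linear axis starting at 0 in each E17.5 library for Eomes, Neurog2, Pax6, Hes1 and Tnc (columns) in CX, HIP and CB (rows), by replicate number and name prefix; grey is WT, red is HET, and a line joins libraries of the same number. The S3 libraries are the highest for Eomes, Neurog2 and Pax6 in CX and HIP and the lowest for Eomes and Pax6 in CB, and the 6 HET libraries of CX lie above the WT library of the same number for Eomes.

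No member was called between HET and WT mice by the test used here, which does not exclude a difference. In E17.5 CX the confidence interval on the log2 scale was -0.60 to 1.13 for Eomes. It was -0.80 to 1.26 for Neurog2 and -0.43 to 1.22 for Hes1. Intervals of the other members there were narrower, such as -0.40 to 0.33 for Hopx. In each of the 9 datasets 0 members were called, out of 9 tested in 7 datasets and 8 in the others (Neurog2 in P7 CX and Eomes in P35 CX had too few reads to be tested). Cul3 was the single gene called in each, that is 0.00603%, 0.00586% and 0.00568% of genes in CX, HIP and CB at E17.5, 0.00566%, 0.00563% and 0.00570% at P7, and 0.00569%, 0.00584% and 0.00584% at P35. At an unadjusted p below 0.05 the members numbered 0, 0 and 1 at E17.5, 0, 0 and 1 at P7, and 1, 1 and 2 at P35, in the same order. Over all genes tested there were 277, 391 and 617 at E17.5, 569, 897 and 857 at P7, and 643, 1070 and 2459 at P35, the last of 17110 genes. The members were Hes5 in E17.5 CB (-0.13 ± 0.04), Hes1 in P7 CB (0.22 ± 0.08) and P35 CX (0.27 ± 0.11), Eomes in P35 HIP (-0.75 ± 0.29), and Neurog2 (0.88 ± 0.31) and Tnc (-0.26 ± 0.11) in P35 CB, and their smallest adjusted p was 0.318. Other tools did not call a member either: DESeq2 and edgeR's likelihood ratio test gave 0 members in each dataset. Removal of unwanted variation with 5 factors (RUVs) called 1, Eomes in P35 HIP, at -0.64 with an adjusted p of 0.0956. It called 476 of 17123 genes in that dataset. Since Cul3 was the single gene called by edgeR's quasi-likelihood test in each dataset, no gene of the 4 pathway lists was called. The lists (Notch pathway, radial glia, neurogenic progenitors and proliferation) therefore add no separate result on genotype.

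The levels behind the larger of these values were low. In P35 HIP the WT libraries held 1.35, 1.37, 2.16, 2.99 and 0.825 CPM of Eomes and the HET libraries 1.18, 0.851, 1.13, 1.08 and 0.919, so the groups overlapped. In P35 CB the WT libraries held 0.285, 0.431, 0.178, 0.437 and 0.210 CPM of Neurog2 and the HET libraries 0.722, 0.650, 0.313, 0.6245 and 0.682, of which only the third lay within the WT range. Hes5 in E17.5 CB ran from 47.9 to 55.6 CPM in WT with a median of 51.1, and from 44.5 to 48.5 in HET with a median of 45.9, with a small overlap. The largest difference in size, Eomes in P7 CX at -1.76 ± 0.89, came from WT replicate 1, and without that library it was 0.50 in the other direction.

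**Figure D4:**
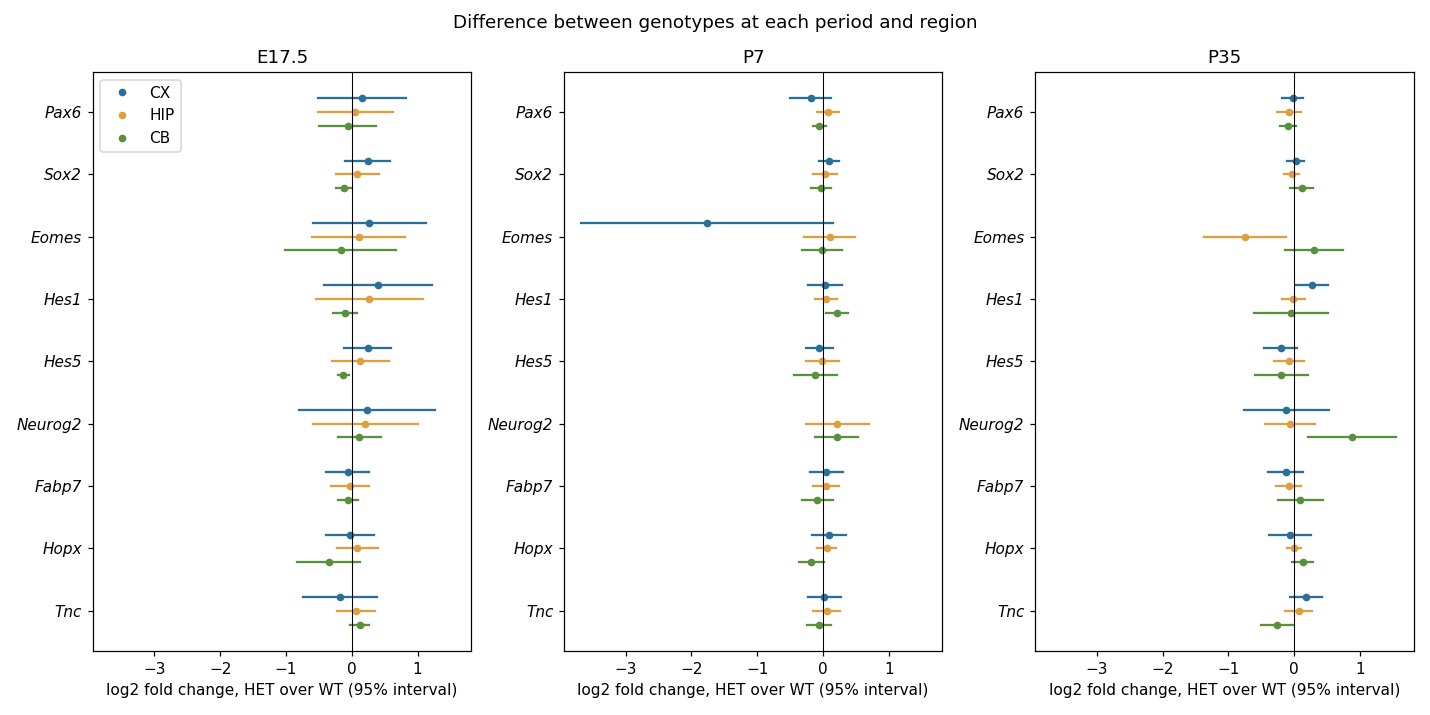
Log2 fold change of HET over WT for each gene at E17.5, P7 and P35, with 95% confidence intervals; colours mark CX, HIP and CB. Intervals are widest for Eomes and Neurog2 and narrow for Sox2, and no point is called at an adjusted p below 0.1.

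In E17.5 CX the deviations of same-numbered WT and HET libraries from their group means correlated at 0.11 to 0.76 over the genes tested, in all 6 pairs. Same-numbered embryos share a name prefix in each region, so these correlations cannot tell a pairing by number from the prefix. In HIP and CB 5 of 6 pairs were above 0.1, and the lowest were -0.26 and -0.024. In no other dataset were all pairs above 0.1. HET lay above WT in 6 of 6 pairs for Eomes, Pax6, Sox2 and Hes5, and in 5 for Neurog2 and Hes1. It did so in 4 pairs for Fabp7, in 3 for Hopx and in 1 for Tnc. Such counts of pairs were not made over all genes. Without a block the Eomes difference was 0.26 ± 0.40 on the log2 scale. With the replicate number as a block it was 0.30 ± 0.05 (95% confidence interval 0.18 to 0.42, adjusted p = 0.091), and Eomes was the 1 member of 9 called, with 0.331% of genes. Under the same block Pax6 was at 0.17 ± 0.04 (adjusted p = 0.154), Neurog2 at 0.25 ± 0.06 (0.174), Sox2 at 0.23 ± 0.06 (0.181) and Tnc at -0.20 ± 0.08 (0.309), and none of these was called. With the prefix in place of the number, a block chosen after the data were seen, Eomes kept a difference of 0.30 with an adjusted p of 0.638 and was not called. Within the prefixes the mean of the HET libraries was 1.18, 1.18 and 1.36 times the WT mean for S2, S3 and S4. In E17.5 HIP HET lay above WT in 6 of 6 pairs for Neurog2 and Hes1, and in 5 for Pax6 and Hes5. It did so in 4 pairs for Eomes and Tnc, in 3 for Sox2 and Fabp7 and in 2 for Hopx. In E17.5 CB it did so in 0 of 6 for Eomes and Hes5 and in 1 for Pax6, Sox2 and Hopx. The count there was 2 for Hes1 and Fabp7, 4 for Neurog2 and 5 for Tnc.

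The genotype difference was not shown to vary with region or period. The F test of genotype by region called 0 of 9 members at E17.5, P7 and P35, where 0%, 0% and 0.00525% of genes were called. That of genotype by period called 0 of 9 in CX, HIP and CB, where 0% of genes were called in each. At an unadjusted p below 0.05 there were 0, 1 and 2 members by region and 0, 0 and 1 by period, and 465, 886 and 3000 and then 404, 787 and 2570 genes in all. The smallest p-values of members by edgeR's F test were for Tnc and Eomes at P35 by region, with an adjusted p of 0.255 for Tnc.

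The genes whose levels tracked each member most closely over the 51 WT libraries were looked up by Pearson's r of log2 CPM, as a description with no test, since libraries share mice, regions and periods. Fabp7 was most like Ogfr (r = 0.97, and 0.95 over the 51 HET libraries), Tnc like Haus7 (0.97 and 0.96), Neurog2 like Frmd4b (0.97 and 0.97), Pax6 like Bmf (0.97 and 0.94) and Hes5 like Fancd2 (0.95 and 0.96). Hopx was most like Thrsp (0.94 and 0.93), Eomes like Cyp4f16 (0.94 and 0.96) and Sox2 like Dusp4 (0.91 and 0.92). Hes1 had no close match: its highest was Ift74 at 0.78 and 0.77. Among the members themselves the closest pairs were Fabp7 with Tnc (0.91) and Neurog2 with Sox2 (0.88), and the most opposed was Hes5 with Hopx (-0.57).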

How the data were processed

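RNA of 108 libraries was sequenced by the authors after ribosomal RNA depletion with a stranded total RNA kit. Reads were trimmed with cutadapt 1.14, aligned to GRCm38.p5 (mm10) with STAR 2.5.3a and counted with RSEM 1.3, per the submitters' processing notes and methods. The authors deposited RSEM expected counts per gene, with no normalization. In these deposited values 5.76% were not whole, and they were rounded here. Symbols and gene positions came from GENCODE on GRCm38, and 53274 of 53465 identifiers had a symbol. Same-group libraries all differed by more than sampling noise over 240 pairs. The labels do not say more of a replicate than its mouse.

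Counts were tested with edgeR 4.0.16 in R 4.3.3 (glmQLFit, glmQLFTest, TMM, filterByExpr with a minimum count of 10 and total of 15), with p-values adjusted over all genes and a call below 0.1. Genotype was fitted in each of 9 datasets and development in each region without a block, and regions with the mouse as a block. Same-numbered WT and HET libraries passed the correlation check (every pair above 0.1) in E17.5 CX alone. Same-numbered embryos share a name prefix, so the check cannot tell a pairing by number from the prefix. Fold changes and confidence intervals come from the same fits. Steps were tested on simulated data. Alternatives were DESeq2 1.42.0, upper-quartile scaling, no filter, the likelihood ratio test, RUVs, blocks, HET in place of WT, the 2 adult mice put back, and each replicate left out. Named genes were the members, the gene most like each of them by Pearson's r, and the 3 smallest p in a list. The members and lists were chosen with earlier results of these data known. The check of CX libraries against a forebrain list is not reported here.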

Additional observations from a re-analysis of the deposited data

Results flagged for a closer look

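In 10 of 162 groups of libraries a single value lay far from the rest, by Dixon's test at a level where chance gives about 5% of groups. In P7 CX WT replicate 1 these were Eomes at 17.03 CPM and Pax6 at 11.7 CPM, both the highest of the group. Pax6 was lowest in P7 CB HET replicate 2 (199.8 CPM) and in P35 HIP WT replicate 5 (7.39 CPM), and Sox2 was lowest in P35 CB WT replicate 3 (18.5 CPM). Hes1 was highest in P35 HIP HET replicate 2 (11.1 CPM) and Hes5 in E17.5 CX WT replicate 4 (25.8 CPM). Neurog2 was highest in P7 CX HET replicate 2 (0.597 CPM) and lowest in P35 CB HET replicate 3 (0.313 CPM), and Tnc was lowest in E17.5 HIP WT replicate 4 (442 CPM). Replicate 4 of E17.5 WT carries the S3 prefix.

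The change over time in WT mice differed between regions for the following members, as a difference of log2 fold changes tested by edgeR. CB less CX from E17.5 to P7 gave Pax6 3.04, Sox2 0.47, Eomes 4.43, Hes1 -0.51, Hes5 -0.96, Neurog2 6.91, Fabp7 0.59, Hopx 2.94 and Tnc 1.11. CB less CX from P7 to P35 gave Pax6 -1.42, Sox2 -0.76, Eomes 2.41, Hes1 -0.65, Hes5 -4.16, Neurog2 -4.63 and Tnc 1.43. HIP less CX from E17.5 to P7 gave Eomes 2.22, Hes1 -0.82, Hes5 -0.58, Neurog2 3.46, Fabp7 0.62 and Tnc 0.41. HIP less CX from P7 to P35 gave Hes5 -0.87, Neurog2 -2.36 and Hopx -0.90. Neurog2 had only 1 to 14 reads in a WT CX library at P7 and 6 to 20 at P35. The Hes1 difference of -0.51 lost its call without E17.5 WT replicate 2 (adjusted p = 0.108), and the Eomes difference of 2.41 lost it without P7 WT replicate 1 (adjusted p = 0.309). The Tnc difference of 0.41 was 0.23 in HET libraries and was not called there (adjusted p = 0.272).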

How the results depend on the processing

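With a replicate block, 1 member was called by genotype in E17.5 CX in place of 0 (Eomes, adjusted p = 0.0912), and in that dataset 55 genes in place of 1. The block on replicate numbers changed no other genotype call among the members. RUVs with 5 factors called 1 member in P35 HIP in place of 0, and in that dataset 476 genes in place of 1. Other alternatives called 0 members by genotype in each of the 9 datasets, and the counts with each replicate left out ran from 0 to 0. With HET libraries in place of WT, 1 member call was lost and 2 were gained among 54 development tests. Between regions 3 were lost and 5 gained among 81 tests. Among 36 differences of change between regions, 1 was lost, 3 were gained and 1 changed sign. The last was Hes1 between CB and CX from E17.5 to P7, 0.090 (adjusted p = 0.779) in place of -0.51. Sox2 between CB and CX at E17.5 was -0.39 and called (adjusted p = 0.00544) in place of -0.047. The cause of these changes was not tested. Members called with a WT mouse left out numbered 5 to 6 and 5 to 5 in CX, 8 to 9 and 6 to 8 in HIP, and 8 to 9 and 8 to 9 in CB over the development steps. Between regions they numbered 5 to 6, 4 to 6 and 6 to 8 at E17.5 for HIP over CX, CB over CX and CB over HIP, where 4 is the count without replicate 2 and 7 the count with all mice, then 8 to 8, 8 to 8 and 6 to 7 at P7, and 8 to 9, 8 to 9 and 9 to 9 at P35. Fabp7 in HIP from E17.5 to P7 lost its call under upper-quartile scaling (0.21). That scaling moved the median of all genes by at most 0.067 on the log2 scale. Counts of all genes called by genotype depended on the tool. In P35 CB they were 1 with edgeR's quasi-likelihood test, 0 with a replicate block and 200 with DESeq2. RUVs with 5 factors called 2, 194 and 61 genes in CX, HIP and CB at E17.5. It called 44, 204 and 258 at P7, and 83, 476 and 177 at P35. Depth limits Neurog2 in P7 CX and Eomes in P35 CX.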
